A study of Homo sapiens with 12 samples.

Results

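The interaction of 1,2-dihydroxynaphthalene (1,2-DHN), a metabolite of naphthalene, and asparagine was measured in SRA01/04, an immortalised human lens epithelial cell line, by bulk stranded RNA sequencing of total RNA 24 hours after treatment. The 4 groups were cells given 1,2-DHN with asparagine (DHN-A), cells given 1,2-DHN (DHN), normal cells supplemented with asparagine (NC-A) and normal cells (NC), with 3 libraries each. The series title places the work in naphthalene-induced lens opacity. Neither doses, nor the order of addition, nor the asparagine content of the medium are stated in the labels. The rule takes all 12 of the 12 libraries and sets the asparagine change in 1,2-DHN-treated cells (DHN-A minus DHN) against the asparagine change in cells without 1,2-DHN (NC-A minus NC), gene by gene, on the log2 scale. Of 60641 gene symbols listed, 17889 had enough counts to be tested. All groups are 1 cell line. Whether each library is a culture of its own is not labelled, and the spread behind every p-value here may therefore be technical.

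An interaction of 0 means that the 2 treatments multiplied: the level with both equals the level with 1,2-DHN times the fold change that asparagine gave alone. A negative interaction, called lower, means that asparagine lowered a gene more, or raised it less, in cells with 1,2-DHN than in cells without it, and a positive one, called higher, means the opposite. By arithmetic the same value is the change with 1,2-DHN in the presence of asparagine minus that in its absence. Genes were called at a Benjamini-Hochberg adjusted p under 0.05 in edgeR's quasi-likelihood test, levels are given as CPM, counts scaled to a common library size, and ± after a log2 value is its standard error. A signed value given for a gene without a unit, in the text or in brackets after its levels, is its log2 interaction.

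As background, 1,2-DHN oxidises readily to 1,2-naphthoquinone, which reacts with thiol groups of proteins. Damaged cytosolic proteins release the factor HSF1, which switches on chaperone genes. Modified KEAP1 releases NRF2, which switches on antioxidant genes. Shortage or imbalance of amino acids acts through the kinase GCN2 and the factor ATF4, which switches on amino acid transporters, synthetic enzymes and tRNA synthetases. Asparagine is made by asparagine synthetase (ASNS), itself an ATF4 target, and can serve as an exchange factor for the import of other amino acids.

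Total counts ran from 12381071 to 27526206 per library. Library 1 of NC-A stood apart, at 65.1 on the first principal component against 12.5 and 10.4 for the other NC-A libraries. Some results, but not all that use this library, are also given without it. Of 28 lens markers, 10 had enough counts to be tested. PAX6, SIX3, GJA1, CDH2 and BFSP1 were detected, whereas FOXE3, the lens alpha crystallin CRYAA (5 counts over all libraries) and the fibre channel gene MIP (6 counts) were at or near 0, as was the epithelial cadherin CDH1 (16 counts). The other 18 lens markers were too low to test. The summed level of the 8 fibroblast markers tested, of 10 listed, was 1454 to 1518 CPM in DHN-A cells, 960.5 to 1017 CPM in DHN cells, 1498 to 1521 CPM in NC-A cells and 1705 to 1810 CPM in NC cells. The 4 collagens among them that are also matrix genes made up 90.7% of that sum. The summed level of the other 4 tested was 129.2 to 133 CPM in DHN-A cells, 113.2 to 127.7 CPM in DHN cells, 128 to 131.5 CPM in NC-A cells and 147.5 to 158.2 CPM in NC cells. Outside the collagens the fibroblast markers were split. DCN and LUM were near 0 (8 and 21 counts over all libraries) and PDGFRA had 73 counts, whereas THY1, PDGFRB and FAP had 22912, 8180 and 813. In bulk RNA fewer cells of a type cannot be told apart from less RNA per cell.

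The interaction was called in 4592 genes (25.7% of those tested), 2361 higher (13.2%) and 2231 lower (12.5%), and 378 of them were at least 2-fold, 122 higher and 256 lower. The shares of 13.2% higher and 12.5% lower are the background for every count of list members called in the interaction. The separate comparisons share libraries with the interaction. Asparagine changed 7455 genes in 1,2-DHN-treated cells (DHN-A against DHN, 41.7%) and 3612 without 1,2-DHN (NC-A against NC, 20.2%). Likewise 1,2-DHN changed 375 genes with asparagine (DHN-A against NC-A, 2.1%) and 6919 without it (DHN against NC, 38.7%). The count of 375 rests on single libraries: it was 143 without DHN-A replicate 2, 230 without DHN-A replicate 1, 170 without NC-A replicate 3 and 226 without NC-A replicate 2. Genes called lower had a median asparagine change of -0.357 with 1,2-DHN and 0.0577 without it, and a median 1,2-DHN change of -0.0257 with asparagine and 0.383 without it. Genes called higher had the mirror medians, 0.297 and -0.097 for asparagine and 0.013 and -0.377 for 1,2-DHN. Across the 17889 genes, which are not independent replicates, the asparagine changes with and without 1,2-DHN had a Pearson r of 0.308, as a description. On the linear CPM scale 0 called genes had a departure of the opposite sign.

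**Figure D1:**
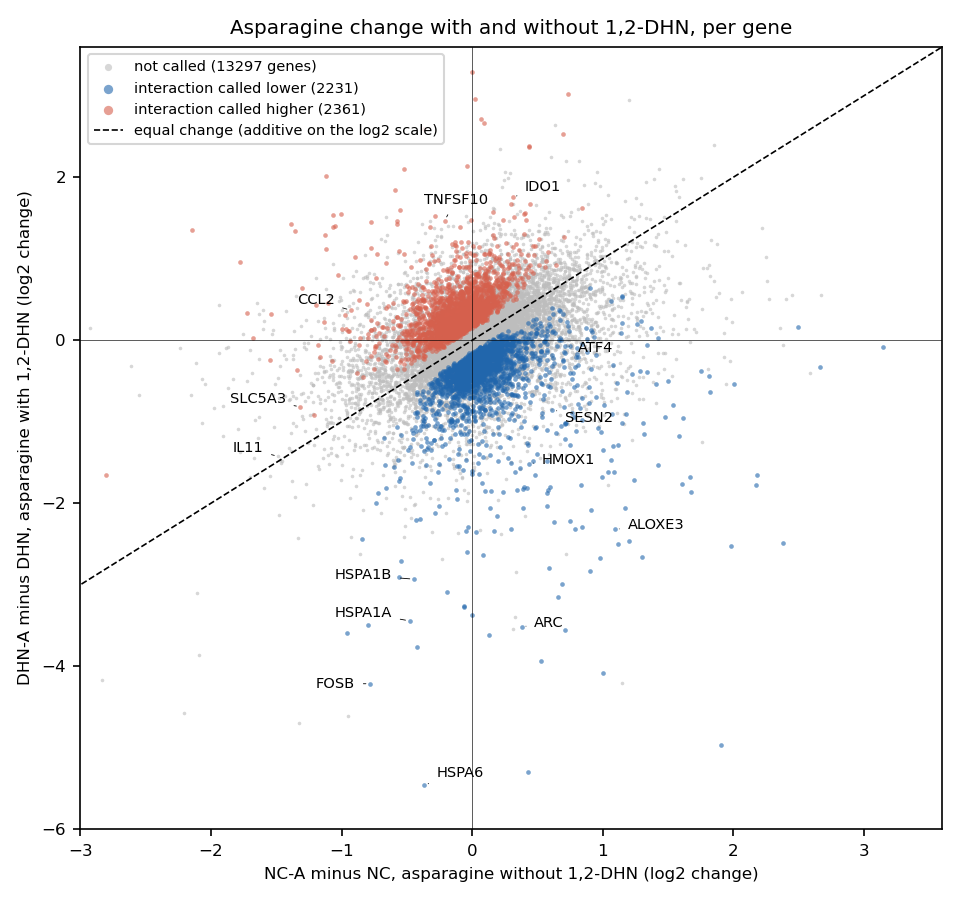
Each point is 1 tested gene, with its log2 change with asparagine in cells without 1,2-DHN (NC-A minus NC) across and in 1,2-DHN-treated cells (DHN-A minus DHN) upward; the dashed line marks equal changes. Blue genes (2231, called lower) lie below the line and red genes (2361, called higher) above it, HSPA6 lies farthest below among the labelled genes, IL11 lies on the line, and 8 genes fall outside the plotted range.

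Heat shock chaperones were mostly highest in DHN cells, and their interactions were negative. Of 26 members tested 23 were called lower and 0 higher (12.5% and 13.2% of all genes; 1 higher without NC replicate 2), with a median of -0.86 against -0.000179 over all genes. HSPA6 (chr1:161524540-161526910, plus strand), a strictly inducible HSP70, stood at 12.5, 11.6 and 10.04 CPM in DHN-A cells, 505, 493 and 511 CPM in DHN cells, 3.18, 3.27 and 3.56 CPM in NC-A cells and 3.73, 4.49 and 4.605 CPM in NC cells. Its 3 DHN libraries were far above all others, and its DHN-A libraries were above both groups without 1,2-DHN. The product of the separate changes would put HSPA6 at 393 CPM in DHN-A cells, and the measured level was 0.029 of that (log2 interaction -5.09 ± 0.15, edgeR adjusted p = 5.54e-26). Its promoter is shown because it holds the element that HSF1 is known to bind, in the RefSeq window of 250 bases before to 50 after the gene's start in GRCh38.p14 (chr1:161524290-161524589, plus strand), 5′ to 3′. Capitals mark, in order, an AP-1 match (bases 7 to 13), an antioxidant match that overlaps a second AP-1 match (bases 110 to 118) and the heat shock element (bases 177 to 189).
HSPA6: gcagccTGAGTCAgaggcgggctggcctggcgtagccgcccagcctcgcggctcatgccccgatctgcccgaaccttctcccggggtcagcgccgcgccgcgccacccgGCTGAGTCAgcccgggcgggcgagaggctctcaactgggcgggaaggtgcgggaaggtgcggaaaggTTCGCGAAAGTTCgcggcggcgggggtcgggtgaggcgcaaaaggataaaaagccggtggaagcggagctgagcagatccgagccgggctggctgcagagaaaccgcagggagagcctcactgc
The heat shock element was searched on both strands as 3 alternating GAA and TTC units with 2 free bases between units. It stood in 5 of the 24 chaperone promoters found in the table (20.8%). Its share was 0.376% of the 11429 promoters of tested genes and 0.487% of all 27305 promoters of that length. The AP-1 site was searched as TGANTCA (7.76% of all promoters) and the antioxidant element as TGACNNNGC (13.6%), and a match is a description, not a bound site.

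HSPA1A (chr6:31815464-31817946, plus strand), the classic inducible HSP70, had 5.5, 6.61 and 6.86 CPM in DHN-A cells, 69.8, 67.1 and 69.3 CPM in DHN cells, 1.33, 1.599 and 1.49 CPM in NC-A cells and 3.04, 1.45 and 1.901 CPM in NC cells, with DHN highest and DHN-A next and no overlap between them (-2.97 ± 0.25). Its near-identical copy HSPA1B had -2.49 and means of 56.7 CPM in DHN-A cells, 433 CPM in DHN cells, 43.96 CPM in NC-A cells and 59.6 CPM in NC cells. Counting could split reads between the 2 copies, and 36.5% of HSPA1B exon bases are shared with another gene on the same strand, so their separate levels are uncertain. BAG3, the HSP70 cochaperone that feeds clients to autophagy, had 216, 219 and 214 CPM in DHN-A cells, 661, 663 and 662 CPM in DHN cells, 186, 198 and 197 CPM in NC-A cells and 234, 230.2 and 233 CPM in NC cells (-1.35 ± 0.052, edgeR adjusted p = 3.64e-25). The DHN libraries of BAG3 were high, and its DHN-A libraries lay between those of NC-A and NC. DNAJB1, which loads clients onto HSP70, followed at -1.23 ± 0.055. In the separate comparisons 23 of the 26 members fell with asparagine in 1,2-DHN-treated cells (20.8% of all genes) and 12 fell without 1,2-DHN (10.9%). 1,2-DHN raised 6 members with asparagine present (0.805%) and 23 without it (19.7%). The chaperonin TRiC, which folds actin and tubulin, had 6 of 8 subunits called lower, led by TCP1 at -0.49 ± 0.054. Among the 31 proteasome subunits, which degrade damaged proteins, 19 were called lower and 0 higher, with PSMC4 at -0.46, PSMD14 at -0.37 and PSMD6 at -0.34; the count was 12 without NC-A replicate 2.

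Immediate early genes, transcription factors and signalling genes switched on within minutes of stress or growth signals, were raised by 1,2-DHN alone in 19 of 23 members tested (19.7% of all genes). Of the 23, 17 were called lower and 2 higher, with a median of -0.86. ARC (chr8:142611044-142614472, minus strand), a neuronal activity gene, had 4.53, 4.97 and 5.83 CPM in DHN-A cells, 53.8, 57.7 and 62.97 CPM in DHN cells, 1.55, 0.799 and 1.09 CPM in NC-A cells and 0.746, 0.772 and 1.06 CPM in NC cells (-3.90 ± 0.30, edgeR adjusted p = 2.01e-13). Its DHN libraries were highest, its DHN-A libraries lay above every library without 1,2-DHN, and without NC-A replicate 1 the interaction was -3.65. FOSB (chr19:45467995-45475179, plus strand), an AP-1 subunit, had 2.52, 2.41 and 1.98 CPM in DHN-A cells, 45.8, 39.4 and 44.3 CPM in DHN cells, 2.14, 1.38 and 1.55 CPM in NC-A cells and 2.86, 2.8 and 2.999 CPM in NC cells (-3.43 ± 0.23). Only DHN cells stood clear of the rest, and without NC-A replicate 1 the value was -3.24. RASD1, a Ras-like GTPase first known as dexamethasone-induced, averaged 2.003 CPM in DHN-A cells, 24.5 CPM in DHN cells, 1.42 CPM in NC-A cells and 1.34 CPM in NC cells (-3.74 ± 0.28). FOS had -2.70. EGR1, a zinc finger factor of the growth response, had 33.6, 33.7 and 32.9 CPM in DHN-A cells, 122, 119 and 124 CPM in DHN cells, 28.1, 28.9 and 25.6 CPM in NC-A cells and 21.6, 23.3 and 24.7 CPM in NC cells (-2.10 ± 0.087). DHN was highest, and the DHN-A libraries lay just above those of NC-A. ATF3 and IER5, both stress-induced regulators, had -1.09 ± 0.058 and -0.86 ± 0.062. The promoter windows of RASD1 and FOSB held none of the 6 motifs searched. An AP-1 site stood in 1 of the 16 promoters found for the list (6.25%). Its share was 4.91% of the promoters of tested genes and 7.76% of all promoters.

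The lowest end also held regulators outside that list. SNAI1, a repressor of epithelial genes, had 3.74, 3.75 and 3.47 CPM in DHN-A cells, 28.9, 32.8 and 31.3 CPM in DHN cells, 3.104, 2.76 and 2.41 CPM in NC-A cells and 3.92, 2.46 and 3.13 CPM in NC cells (-2.90 ± 0.21). DHN alone was high. RGS2, which shortens G protein signals, and MYLIP, a ubiquitin ligase for the LDL receptor, had -2.56 ± 0.22 and -3.21 ± 0.40. ALOXE3, a lipoxygenase, differed from these in that asparagine alone raised it: 3.44 CPM in DHN-A cells, 17.2 CPM in DHN cells, 3.38 CPM in NC-A cells and 1.57 CPM in NC cells (-3.42 ± 0.25). Among MAP kinase phosphatases and Sprouty genes, which damp growth signalling, 7 of 16 were called lower and 1 higher, with DUSP5 at -0.74, ERRFI1 at -0.62 and DUSP1 at -0.35. The lowest of them was DUSP2, an inducible phosphatase named after its values were seen, at -3.34 ± 0.66 on low counts. DUSP2 had 8, 18 and 6 counts in DHN-A cells, 76, 106 and 124 in DHN cells, 3, 4 and 4 in NC-A cells and 7, 4 and 9 in NC cells. Its DHN libraries stood far above the others. KLF10, KLF4 and KLF5 were the 3 Kruppel-like factors called lower of 13, at -0.84, -0.98 and -0.91, and 2 were called higher (12.5% lower and 13.2% higher over all genes). The single higher call among the phosphatases was lost without NC replicate 2, NC-A replicate 2, NC-A replicate 3, DHN replicate 1 or DHN-A replicate 1, and 2 were called higher without NC replicate 3 or NC-A replicate 1. CLK1, a splicing kinase, led the 9 of 15 splicing regulators called lower at -1.06 ± 0.08, with TRA2B at -0.48 and SRSF6 at -0.55.

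NRF2 targets, the genes of quinone reduction, glutathione and iron handling, had 19 of 33 members called lower and 0 higher, with a median of -0.42. HMOX1 (chr22:35380361-35394214, plus strand), heme oxygenase 1, had 50.003, 46.9 and 47.2 CPM in DHN-A cells, 139, 132 and 141 CPM in DHN cells, 43.9, 47.02 and 41.2 CPM in NC-A cells and 29.8, 30.99 and 35.9 CPM in NC cells. The DHN libraries were highest, the NC libraries lowest, and the DHN-A and NC-A libraries overlapped. Asparagine moved HMOX1 in opposite directions, by -1.51 with 1,2-DHN and 0.44 without it (interaction -1.95 ± 0.084, edgeR adjusted p = 5.81e-23). TXNRD1, thioredoxin reductase, averaged 376 CPM in DHN-A cells, 595 CPM in DHN cells, 358 CPM in NC-A cells and 315 CPM in NC cells (-0.84 ± 0.05). FTL, ferritin light chain, had -0.71 ± 0.052. NQO1, the quinone reductase, had 79.6, 79.8 and 85.4 CPM in DHN-A cells, 113, 117 and 124 CPM in DHN cells, 62.1, 62.6 and 59.6 CPM in NC-A cells and 57.98, 56.3 and 56.4 CPM in NC cells (-0.64 ± 0.07). Here the DHN-A libraries lay between those of DHN and those without 1,2-DHN. 1,2-DHN raised 5 of the 33 with asparagine present (0.805% of all genes) and 27 without it (19.7%). The antioxidant element stood in 7 of the 24 promoters found for these targets (29.2%). Its share was alike in the chaperone (29.2%), ATF4 (29.6%) and interferon (28.6%) lists. It was 15% of the promoters of tested genes and 13.6% of all promoters. Aryl hydrocarbon receptor targets gave 2 lower and 1 higher of 7, NQO1 among them with TIPARP at -0.21 and AHRR at 0.19. TIPARP was not called without NC-A replicate 3 or DHN-A replicate 1, and AHRR without NC replicates 1 or 3, NC-A replicates 1 or 3, DHN replicates 1 or 2, or DHN-A replicate 3. The metallothionein and zinc list gave 2 lower and 2 higher of 6. MTF1, the zinc sensor, and SLC30A1, the zinc exporter, were called lower at -0.51 and -0.30. MT1E was called higher at 0.74, as was MT2A, named after its values were seen, at 0.88 ± 0.18. Autophagy genes gave 7 lower and 4 higher of 21, led by GABARAPL1 at -0.84 ± 0.078, MAP1LC3B at -0.78 ± 0.084 and the cargo receptor SQSTM1 at -0.64 ± 0.058. The higher count was 2 without NC-A replicate 2 and 1 without DHN replicate 2 or DHN-A replicate 2.

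1,2-DHN alone raised 23 of the 35 tested members of the ATF4 list and asparagine alone 27, and most had a level with both below the product of those changes. ATF4 (chr22:39519695-39522685, plus strand) had 375, 370.4 and 362 CPM in DHN-A cells, 389, 377 and 395 CPM in DHN cells, 400.3, 407 and 398 CPM in NC-A cells and 248, 236 and 251 CPM in NC cells. The DHN-A, DHN and NC-A libraries all lay well above the NC libraries, and the product of the separate changes would be 634 CPM (-0.78 ± 0.051, edgeR adjusted p = 1.43e-16). Of the 35 members 22 were called lower and 2 higher (1 without DHN-A replicate 3), with a median of -0.32. The background was 19.7% of all genes raised by 1,2-DHN alone and 9.32% raised by asparagine alone. Asparagine alone lowered 2 members (10.9%), with a median change of 0.46. In 1,2-DHN-treated cells it raised 14 (20.9%) and lowered 11 (20.8%), with a median of 0.005. SLC3A2, the shared heavy chain of several amino acid transporters, had 185, 181 and 179 CPM in DHN-A cells, 355, 337 and 354 CPM in DHN cells, 175, 176 and 172 CPM in NC-A cells and 123, 114 and 124 CPM in NC cells (-1.47 ± 0.057). DHN cells stood far above the DHN-A and NC-A libraries. SESN2, a leucine sensor and p53 target, averaged 69.9 CPM in DHN-A cells, 126 CPM in DHN cells, 72.7 CPM in NC-A cells and 47.4 CPM in NC cells (-1.47 ± 0.069).

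ASNS (chr7:97852118-97872542, minus strand) had 3.95, 4.85 and 4.05 CPM in DHN-A cells, 4.67, 4.48 and 4.28 CPM in DHN cells, 4.95, 5.52 and 5.17 CPM in NC-A cells and 2.67, 1.59 and 1.99 CPM in NC cells, a low level in every group (-1.40 ± 0.26, edgeR adjusted p = 4.54e-05). Its NC libraries were lowest, those of DHN-A and DHN overlapped, and those of NC-A were just above them. Of its exon bases 44.6% lie in another gene on the same strand, so its level is uncertain. The ASNS promoter is shown for the element that ATF4 with C/EBP proteins is known to use, from RefSeq in GRCh38.p14 (chr7:97872359-97872658, minus strand), 5′ to 3′ on the gene's strand. RefSeq's start for ASNS also lies downstream of the GENCODE start, and part of the window falls inside the GENCODE span. Capitals mark the C/EBP-ATF match (bases 183 to 190).
ASNS: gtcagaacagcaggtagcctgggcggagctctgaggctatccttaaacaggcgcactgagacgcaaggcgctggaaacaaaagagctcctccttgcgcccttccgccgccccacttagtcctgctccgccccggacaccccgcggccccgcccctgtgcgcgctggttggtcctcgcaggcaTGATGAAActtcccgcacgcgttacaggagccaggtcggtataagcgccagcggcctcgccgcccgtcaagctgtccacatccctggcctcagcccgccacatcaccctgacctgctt
That element, searched as TGATGNAA on both strands, stood in 4 of the 27 promoters found for the list (14.8%). Its share was 1.78% of the promoters of tested genes and 3.67% of all promoters. DDIT3, the factor CHOP, averaged 13.4 CPM in DHN-A cells, 25.5 CPM in DHN cells, 12.5 CPM in NC-A cells and 12.5 CPM in NC cells (-0.95 ± 0.14). It had an asparagine change of 0.02 without 1,2-DHN that was not called (edgeR adjusted p = 0.938), and 31.6% of its exon bases overlap a gene on the other strand.

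Aminoacyl-tRNA synthetases, which charge tRNAs, gave 9 lower and 3 higher of 20. GARS1, for glycine, had 272, 261 and 266 CPM in DHN-A cells, 270.4, 270.5 and 251 CPM in DHN cells, 303, 300.4 and 308 CPM in NC-A cells and 163, 169 and 163 CPM in NC cells (-0.87 ± 0.055). NC-A was highest, NC was lowest and the DHN-A and DHN libraries overlapped. YARS1 and TARS1, for tyrosine and threonine, had -0.67 and -0.37. Cytosolic ribosomal proteins gave 26 lower and 0 higher of 40, with a median of -0.19, from RPL32 at -0.38, RPL11 at -0.29 and RPL7 at -0.29; on the linear scale 16 were called lower. Growth arrest and p53 targets gave 16 lower and 1 higher of 25. GADD45A had 152, 149 and 143 CPM in DHN-A cells, 219, 223 and 221 CPM in DHN cells, 139, 149.6 and 152 CPM in NC-A cells and 97.4, 98.5 and 95.98 CPM in NC cells (-1.18 ± 0.059). Its DHN-A and NC-A libraries overlapped. GADD45B, its stress-induced relative, had -2.35 ± 0.083. Enzymes of aspartate, asparagine and glutamine gave 2 lower and 3 higher of 17, close to the shares over all genes (12.5% and 13.2%). The higher ones were CAD of pyrimidine synthesis (0.36), GFPT2 (0.25) and GOT2 (0.23). The lower count there was 1 without NC replicate 3, NC-A replicate 3 or DHN-A replicate 1.

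**Figure D2:**
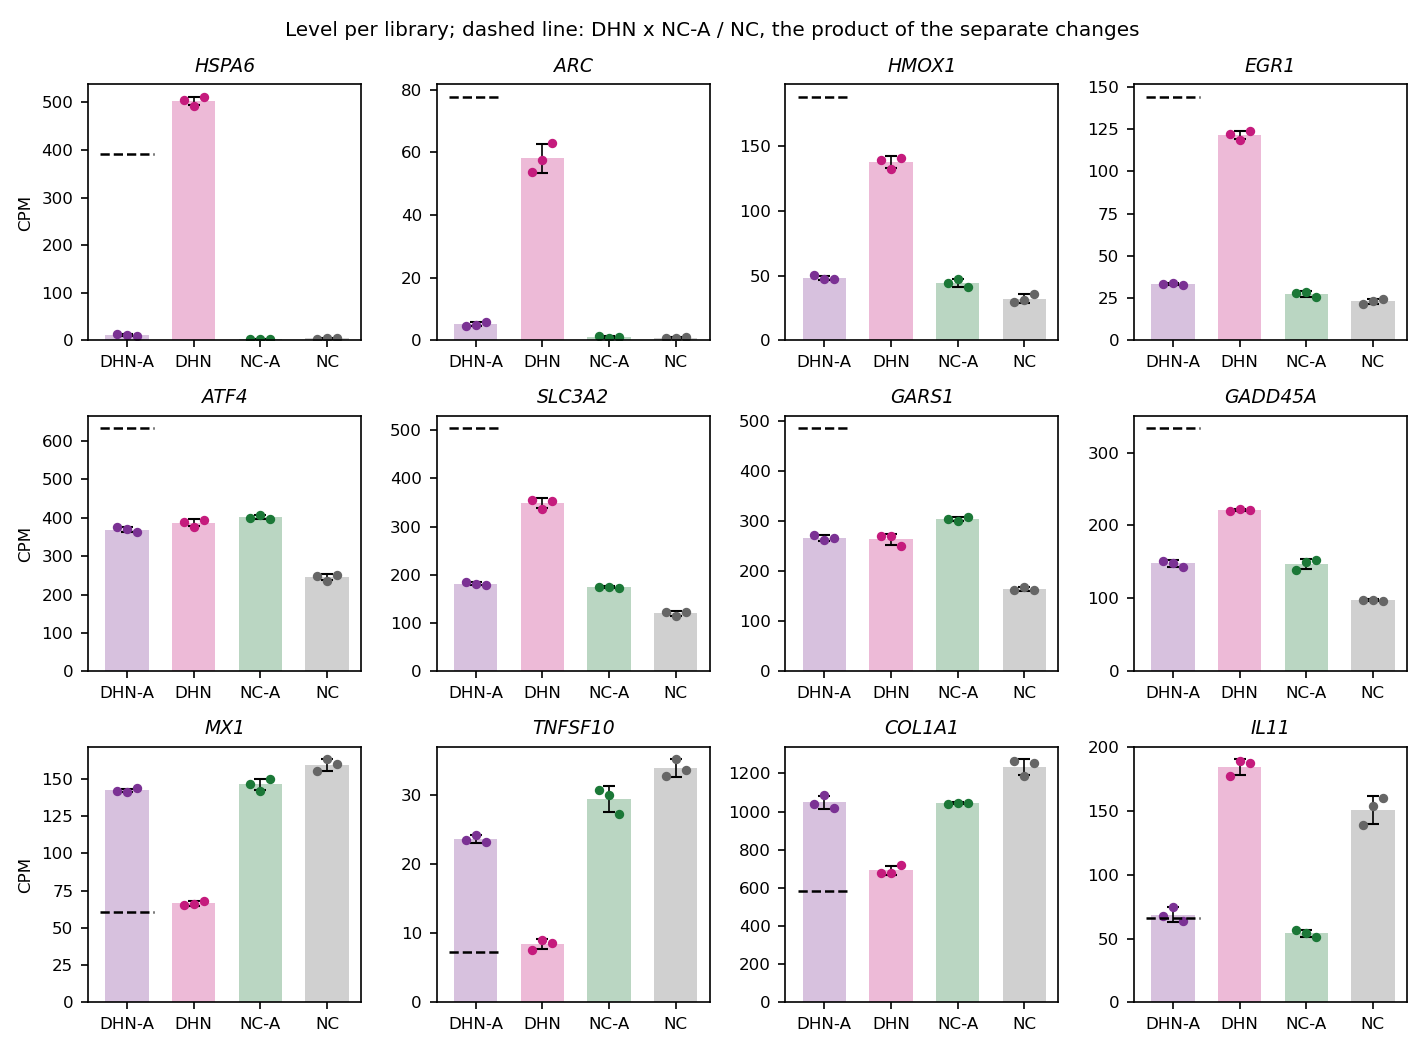
CPM of 12 genes in the 3 libraries of each group (points), with bars at the mean, error bars of 1 SD and a dashed line at DHN times NC-A over NC, the product of the separate changes. HSPA6 reached 11.4 CPM in DHN-A cells where that product is 393 CPM, ATF4 in DHN-A cells lay below its product of 634 CPM, and IL11 in DHN-A cells lay at its product.

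Whether the treatments added up was then asked of the 208 genes that each one changed alone by at least 0.5 on the log2 scale and that were called in both DHN against NC and NC-A against NC. These comparisons share the NC libraries with each other and with the interaction, so an error in NC enters all of them, and the values are a description. An NC level that is too low by error favours both the choice of a gene as raised by each and a negative interaction. One that is too high favours the choice as lowered by each and a positive interaction. No minimum count was set beyond the filter for testing, and C2, for 1, averaged 5.5 counts. Of 97 genes raised by each, 79 were called lower and 0 higher; the median sum of the separate changes was 1.83 and the median measured change, DHN-A minus NC, was 0.713. Of 74 genes lowered by each, 62 were called higher and 0 lower, with a median sum of -1.55 and a measured median of -0.813. The other 37 were moved in opposite directions, and 14 were called lower, 7 higher. No gene was shown to be near additive: 0 of the 208 had a 95% interval of the interaction inside -0.3 to 0.3, although 50 had an interval narrow enough for that.

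**Figure D3:**
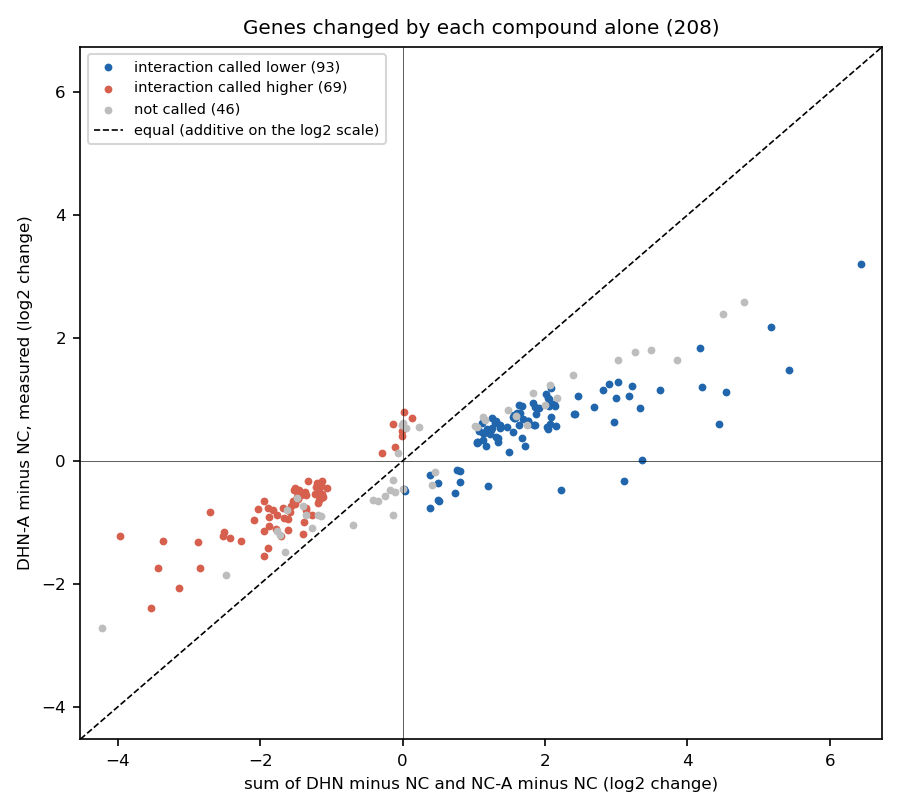
Each point is 1 of the 208 genes changed by each treatment alone, with the sum of its separate log2 changes across and its measured log2 change, DHN-A minus NC, upward; the dashed line marks equality. Of 97 genes raised by each, 79 were called below the line, and of 74 lowered by each, 62 were called above it, with measured medians of 0.713 and -0.813 against sums of 1.83 and -1.55.

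Interferon-stimulated genes had positive interactions. Of 28 tested 24 were called higher and 0 lower, with a median of 0.53. MX1 (chr21:41420304-41459214, plus strand), an antiviral GTPase, had 142, 141 and 144 CPM in DHN-A cells, 65.1, 66.3 and 67.9 CPM in DHN cells, 147, 142 and 149.97 CPM in NC-A cells and 155, 163 and 159.8 CPM in NC cells (1.22 ± 0.06, edgeR adjusted p = 3.60e-21). Its DHN libraries alone were low, and the DHN-A and NC-A libraries overlapped. Its promoter is shown, a choice made after its values were seen, for the interferon element, from RefSeq in GRCh38.p14 (chr21:41420308-41420607, plus strand), 5′ to 3′. RefSeq's start for MX1 lies downstream of the GENCODE start given above, so the window falls inside the GENCODE span of the gene. Capitals mark the match (bases 262 to 271).
MX1: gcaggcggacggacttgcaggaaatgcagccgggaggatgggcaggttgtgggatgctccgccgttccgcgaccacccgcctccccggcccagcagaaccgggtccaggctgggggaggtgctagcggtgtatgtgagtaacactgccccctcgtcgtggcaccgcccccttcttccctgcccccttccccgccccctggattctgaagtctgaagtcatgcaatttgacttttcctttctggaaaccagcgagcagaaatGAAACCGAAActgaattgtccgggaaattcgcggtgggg
The element was searched on both strands as a GAAA repeat with 2 free bases between. It stood in 16 of the 21 promoters found for the list (76.2%). Its share was 3.05% of the promoters of tested genes and 3.65% of all promoters. TNFSF10, the death ligand TRAIL, had 23.5, 24.3 and 23.2 CPM in DHN-A cells, 7.66, 9.104 and 8.597 CPM in DHN cells, 30.8, 30.1 and 27.3 CPM in NC-A cells and 32.7, 35.3 and 33.6 CPM in NC cells (1.68 ± 0.11). DHN was lowest and DHN-A lay below both groups without 1,2-DHN. GBP4 and OAS3, an interferon-induced GTPase and an RNA sensor, had 1.47 ± 0.077 and 0.93 ± 0.052. In the separate comparisons 25 members fell with 1,2-DHN alone (19% of all genes) and 2 with asparagine present (1.29%). Genes of the same end outside the list were IDO1, which degrades tryptophan, at 1.45 ± 0.26, IL4I1, an amino acid oxidase, at 1.33 ± 0.11, AIM2, a DNA sensor, at 1.27 ± 0.25, LGALS9, a galectin, at 1.29 ± 0.31, and SLC15A3, a peptide transporter, at 1.27 ± 0.18.

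Inflammatory and NF-kB genes were mixed, with 7 higher and 2 lower of 19, the lower count being 1 without NC replicates 2 or 3, NC-A replicates 1 or 3, DHN replicate 1 or DHN-A replicate 3. CCL2, a monocyte chemokine, had 9.42, 8.52 and 10.4 CPM in DHN-A cells, 7.33, 7.102 and 7.48 CPM in DHN cells, 6.95, 6.47 and 9.65 CPM in NC-A cells and 14.98, 15.4 and 14.2 CPM in NC cells (1.30 ± 0.17). NC was highest, and each treatment alone lowered it. NFKBIA, the NF-kB inhibitor, averaged 212 CPM in DHN-A cells, 202 CPM in DHN cells, 183 CPM in NC-A cells and 259 CPM in NC cells (0.57 ± 0.056). ICAM1, an adhesion receptor, averaged 160.4 CPM in DHN-A cells, 92.4 CPM in DHN cells, 172 CPM in NC-A cells and 166 CPM in NC cells (0.75 ± 0.06; 23.6% of its exon bases overlap a gene on the other strand). TENM2, KLHDC7B, SYTL5 and ZBED6CL, also among the highest, had 1.37, 1.30, 1.27 and 1.25. The immune marker CD74 was the 1 of 5 tested called higher (0.78). The summed level of the 5 tested, of 10 listed, was 27.06 to 29.18 CPM in DHN-A cells, 20.39 to 23.05 CPM in DHN cells, 22.57 to 26.68 CPM in NC-A cells and 25.63 to 26.61 CPM in NC cells.

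Matrix genes also had positive interactions, 23 higher and 2 lower of 29 (1 lower without NC replicate 3 and in DESeq2), with a median of 0.54. The 2 called lower, named after their values were seen, were the stromelysin MMP3 at -2.50 ± 0.79, the largest departure of the list, and ADAMTS1, a secreted protease, at -0.75 ± 0.083. MMP3 rests on few counts, 6, 9 and 9 in DHN-A cells, 20, 25 and 42 in DHN cells, 3, 10 and 5 in NC-A cells and 14, 4 and 3 in NC cells. COL1A1 (chr17:50183289-50201632, minus strand), a fibrillar collagen chain, had 1041, 1088 and 1021 CPM in DHN-A cells, 679, 677 and 720.3 CPM in DHN cells, 1039, 1047 and 1046 CPM in NC-A cells and 1264, 1184 and 1254 CPM in NC cells (0.84 ± 0.05). Its DHN libraries were lowest, the DHN-A and NC-A libraries overlapped, and NC was highest. COL6A3 and COL5A2, chains of microfibrillar and fibril-regulating collagens, had 1.05 ± 0.057 and 0.90 ± 0.055. COL1A1, COL1A2 (1.01) and COL6A3 are also fibroblast markers, of which 6 of 8 tested were called higher; the summed level of these markers given above consists mostly of the collagens themselves. Of the 4 tested markers outside the matrix list, THY1 (0.31) and PDGFRB (0.51) were called higher, and the part of fibroblast markers in the matrix result was not tested. Genes of epithelial-mesenchymal transition were split, 9 higher and 5 lower of 22: VIM, vimentin, had 0.34 ± 0.044 and SNAI2 -0.79 ± 0.10. Of the lens markers CDH2 and GJA1 were called higher (0.32 and 0.21) and CRYAB, the small heat shock protein also in the chaperone list, lower (-2.06 ± 0.36). The lens count of 1 lower was 2 without NC replicate 2, NC-A replicate 3 or DHN-A replicate 2. CRYAB averaged 3.81 CPM in DHN-A cells, 10.8 CPM in DHN cells, 1.103 CPM in NC-A cells and 0.704 CPM in NC cells. Of keratinocyte and pigment markers, KRT10 (-0.32, lost without NC-A replicate 1 or DHN-A replicate 1) and TYRP1 were called lower. TYRP1 had 6, 17 and 2 counts in DHN-A cells, 6, 3 and 13 in DHN cells, 4, 10 and 6 in NC-A cells and 0, 2 and 2 in NC cells, too few to read a size.

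Mitosis genes had 20 of 23 called higher and 0 lower, with a median of 0.33. PLK1, a mitotic kinase, had 106, 108 and 109 CPM in DHN-A cells, 73.2, 73.3 and 74.1 CPM in DHN cells, 103, 108 and 102 CPM in NC-A cells and 116, 118 and 118 CPM in NC cells (0.72 ± 0.062). DHN was lowest, NC highest, and the DHN-A and NC-A libraries overlapped. The kinesins KIF20A and KIF2C had 0.67 and 0.45. DNA replication genes went the other way in the members called, 7 lower and 2 higher of 22: CDC6, which loads the replicative helicase, averaged 56.1 CPM in DHN-A cells, 112 CPM in DHN cells, 59.4 CPM in NC-A cells and 66.3 CPM in NC cells (-0.84 ± 0.072), with MCM10 at -0.40 and CDT1 at -0.36; without a filter on low counts 4 were called lower. The 2 higher calls were 0 without NC-A replicate 1, DHN replicate 2 or DHN-A replicate 2, and 1 without NC replicate 1, NC replicate 2, DHN replicate 3 or DHN-A replicate 1.

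Glycolytic genes had 15 of 22 called higher and 0 lower, and 1,2-DHN alone lowered 18 of them (19% of all genes) and asparagine alone 19 (10.9%). LDHA, lactate dehydrogenase A, had 457, 437 and 464 CPM in DHN-A cells, 484, 475 and 479 CPM in DHN cells, 711, 711 and 686 CPM in NC-A cells and 1032, 1094 and 1028 CPM in NC cells (0.50 ± 0.05). Its NC libraries were highest, NC-A next, and the DHN-A and DHN libraries lowest and close to each other. SLC2A1, the glucose transporter GLUT1, and ENO2, an enolase, had 0.60 ± 0.056 and 0.58 ± 0.056. With asparagine present 1,2-DHN lowered 16 of the 22 (1.29%). Hypoxia targets outside glycolysis gave 10 higher and 5 lower of 20 (3 lower without a filter on low counts). LOX, which cross-links collagen, had 0.86 ± 0.092, whereas ADM, a vasodilator peptide, had -1.78 ± 0.15 and VEGFA -0.59 ± 0.055. BNIP3 and BNIP3L, mitophagy receptors of the BCL2 family, had 0.41 and 0.36, and the survival factor MCL1 0.28. The family had 5 higher and 4 lower of 18 (13.2% and 12.5% of all genes). Its largest called change was that of HRK, named after its values were seen, at -1.13 ± 0.29. TXNIP, an arrestin that follows glucose supply, averaged 75.9 CPM in DHN-A cells, 38.5 CPM in DHN cells, 103 CPM in NC-A cells and 69.5 CPM in NC cells (0.41 ± 0.082), whereas ARRDC3 and ARRDC4 had -0.33 and -0.46, and leaving out 1 library ended the call of ARRDC3 for 6 of the 12 libraries and that of ARRDC4 for 9.

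Chaperones and stress genes of the endoplasmic reticulum had interactions mostly opposite in sign to the cytosolic chaperones, with 13 higher and 3 lower of 23. 1,2-DHN alone lowered 18 of the 23 (19% of all genes) and asparagine alone 14 (10.9%). In 1,2-DHN-treated cells asparagine raised 5 (20.9%) and lowered 9 (20.8%), with a median of -0.03. PDIA4, a disulfide isomerase, had 895, 914 and 867 CPM in DHN-A cells, 719.8, 708 and 728 CPM in DHN cells, 873, 897 and 889 CPM in NC-A cells and 1047, 1064 and 1083 CPM in NC cells (0.58 ± 0.047). DHN was lowest and NC highest. HYOU1, a chaperone of the same compartment, had 0.53 ± 0.058, while ERN1, the stress sensor IRE1, had -1.04 ± 0.10. Cholesterol and fatty acid synthesis gave 13 higher and 2 lower of 27, with LSS at 0.66, SCD at 0.56 and FADS2 at 0.59. SLC5A3 (chr21:34073570-34106262, plus strand), the myo-inositol transporter of osmotic control, had 144, 142 and 157 CPM in DHN-A cells, 264, 267 and 251 CPM in DHN cells, 149.8, 144 and 145 CPM in NC-A cells and 368, 369.6 and 351 CPM in NC cells (0.50 ± 0.058). The DHN-A and NC-A libraries overlapped and lay below DHN, and NC was highest. HSPA4L and SGK1 of the osmolyte list had -0.92 and -0.34. Mitochondrially encoded genes were split, 4 higher and 3 lower of 13, with MT-CO1 at 0.28, MT-CYB at 0.20 and MT-ND1 at -0.31; the 4 higher calls were 1 on the linear scale, 7 with the replicate block, 7 without DHN-A replicate 3 and 8 without a filter on low counts.

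**Figure D4:**
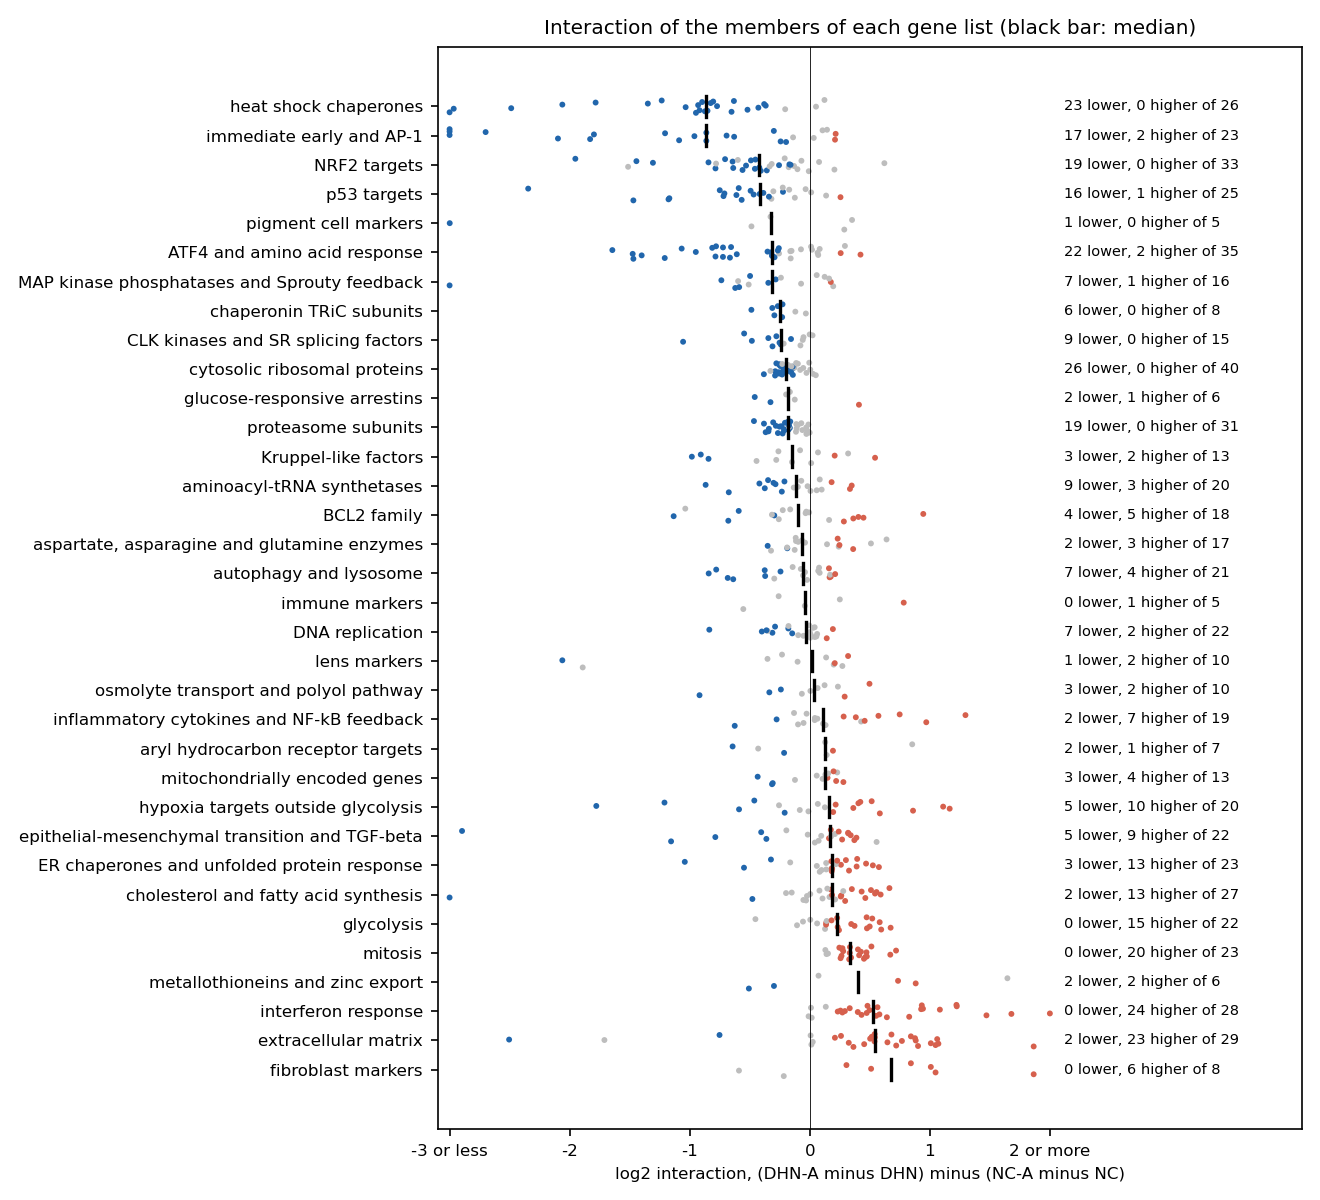
Log2 interaction of each tested member of the 34 lists with at least 5 tested members, blue where called lower, red where called higher and grey where not called, with a black bar at the median; values beyond the axis are drawn at its end. Heat shock chaperones (23 lower of 26) and immediate early genes (17 of 23) lie mostly left of 0, and interferon (24 higher of 28), matrix (23 of 29) and mitosis genes (20 of 23) mostly right of it.

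A few genes had an asparagine change with 1,2-DHN close to that without it. Of 736 genes that NC-A against NC called at 0.5 or more, 137 had an interval narrow enough to show this, and 19 had a 95% interval of the interaction inside -0.3 to 0.3, a set chosen after the values were seen. IL11, a cytokine of the IL6 family, averaged 68.8 CPM in DHN-A cells, 184.8 CPM in DHN cells, 54.1 CPM in NC-A cells and 150.9 CPM in NC cells. Asparagine changed it by -1.43 with 1,2-DHN and -1.48 without it, and the interval of the difference was -0.10 to 0.22. MANF, a secreted protein of the endoplasmic reticulum, was among the other 18. TGFB1, a growth factor, was also within these bounds, but its interaction was called higher at 0.18 (interval 0.053 to 0.297, edgeR adjusted p = 0.0263), with changes of -0.35 with 1,2-DHN and -0.52 without it. Of 2041 genes that DHN against NC called at 0.5 or more, 874 had an interval narrow enough. The 1,2-DHN change stayed within the same bounds in 3 of them, HK2, NDRG1 and FTH1. HK2, hexokinase 2, changed by -0.65 with asparagine and -0.78 without it. FTH1, ferritin heavy chain, changed by 0.35 with asparagine and 0.52 without it, and its interaction was called lower at -0.17 (interval -0.285 to -0.054, edgeR adjusted p = 0.0231).

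The build of the called genes is given as a description. In GENCODE release 29, where 98% of the genes called lower and 97.9% of those called higher had an annotation, the median gene span was 28946 bases for lower, 43049 bases for higher and 25039 bases for all tested genes, and the median number of exon blocks was 9, 14 and 9. Over the 35 lists, 394 called genes belonged to a list and 4198 to none. Promoters were found for 78.4% of the called genes in each direction and 63.9% of all tested genes, so motif shares over called genes are incomplete. By list they were found for 24 of 26 chaperone, 27 of 35 ATF4, 24 of 33 NRF2, 21 of 28 interferon and 16 of 23 immediate early genes. The motif shares of these lists cover only the promoters found.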

How the data were processed

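The authors deposited 1 table of raw counts per gene symbol for 12 libraries. Libraries were made from total RNA with a stranded kit, per the labels' protocols, and the submitters' processing notes name Bowtie and hg38; no source used here gives their versions, the counting tool, its strand setting or the annotation. The deposited gene lengths were not used. Groups were taken from the sample titles.

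The counts were fitted in R 4.3.3 with edgeR 4.0.16 (filterByExpr with the 4 groups, trimmed mean of M values factors, robust quasi-likelihood fit, 1 mean per group over all 12 libraries), which left 17889 of 60641 symbols; the other 42752 were not tested, 17451 of them without a count. The interaction and its components were contrasts of that fit, with Benjamini-Hochberg adjustment over all tested genes. Standard errors and 95% intervals are Wald values with the fit's degrees of freedom. CPM use the scaled library sizes, and the product of the separate changes is DHN times NC-A over NC of the group means. The square root of the common dispersion was 4.6%, and the median SD of log2 CPM between replicates over called genes was 0.0712. At these depths, 12381071 to 27526206 counts, intervals cover the spread between libraries.

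The naming rule takes the 12 highest and 12 lowest called genes averaging 50 counts or more, up to 3 called members of each list with the smallest p, whatever their counts, and 8 genes in every case; others are said to be chosen after their values were seen. Of the 12 lowest, 1 is not reported here. The members and lists were chosen with earlier results of these data known. Coordinates and exon overlap come from GENCODE release 29 (GRCh38), where 17204 tested symbols matched 1 gene, and promoters from RefSeq, where 11429 matched. The alternatives tried were limma 3.58.1 (voom, and a linear scale on CPM), DESeq2 1.42.0, scaling by relative log expression, no filter, a 2-fold minimum, a replicate block, thinning to 1 depth and each library left out.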

Additional observations from a re-analysis of the deposited data

Results flagged for a closer look

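All 117 genes taken by the naming rule were called in the interaction test, against 25.7% of all tested genes. Apart from the genes named in every case, the rule takes only called genes. Their calls therefore follow from the choice and are not a further result. Groups of 3 libraries are too small for a test of single outlying libraries. The value given for each gene is its mean level in DHN-A cells as a ratio to the product of the separate changes, so 1 means that the treatments multiplied.

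Among heat shock chaperones and TRiC and proteasome subunits the ratios were HSPA6 0.029, HSPA1A 0.133, HSPA1B 0.178, BAG3 0.393, DNAJB1 0.425, TCP1 0.714, CCT6A 0.806, CCT4 0.815, PSMC4 0.725, PSMD14 0.774 and PSMD6 0.786. Of immediate early and other signalling genes the ratios were ARC 0.0657, RASD1 0.0769, FOSB 0.091, FOS 0.154, EGR1 0.232, ATF3 0.471, IER5 0.551, SNAI1 0.135, SNAI2 0.576, RGS2 0.169, ALOXE3 0.0931, MYLIP 0.105, DUSP5 0.6, ERRFI1 0.648, DUSP1 0.787, KLF10 0.557, KLF4 0.503 and KLF5 0.536. For NRF2, aryl hydrocarbon receptor, metal and autophagy genes the ratios were HMOX1 0.256, TXNRD1 0.557, FTL 0.613, NQO1 0.642, TIPARP 0.863, AHRR 1.14, MT1E 1.67, MTF1 0.701, SLC30A1 0.809, GABARAPL1 0.558, SQSTM1 0.643 and MAP1LC3B 0.582. In the amino acid response, tRNA charging, p53 and ribosomal lists the ratios were SLC3A2 0.36, SESN2 0.36, ATF4 0.582, ASNS 0.383, DDIT3 0.524, GARS1 0.548, YARS1 0.626, TARS1 0.772, CAD 1.29, GFPT2 1.18, GOT2 1.17, GADD45B 0.198, GADD45A 0.443, RPL32 0.767, RPL11 0.818, RPL7 0.819, CLK1 0.481, TRA2B 0.715 and SRSF6 0.685. Interferon, inflammatory and other genes at the high end gave TNFSF10 3.23, GBP4 2.8, MX1 2.34, OAS3 1.9, IDO1 2.68, TENM2 2.59, IL4I1 2.53, KLHDC7B 2.51, CCL2 2.49, LGALS9 2.43, SLC15A3 2.42, AIM2 2.39, SYTL5 2.41, ZBED6CL 2.35, ICAM1 1.68 and NFKBIA 1.49. Matrix, mitosis and replication genes gave COL6A3 2.07, COL1A1 1.79, COL5A2 1.87, COL1A2 2, VIM 1.27, PLK1 1.65, KIF20A 1.59, KIF2C 1.37, CDC6 0.56, MCM10 0.76 and CDT1 0.778. Genes of glycolysis, hypoxia, survival and glucose sensing gave SLC2A1 1.51, ENO2 1.5, LDHA 1.41, ADM 0.292, VEGFA 0.665, LOX 1.82, BNIP3 1.33, BNIP3L 1.29, MCL1 1.22, TXNIP 1.33, ARRDC3 0.797 and ARRDC4 0.721. Genes of the endoplasmic reticulum, osmolytes, lipids and mitochondria gave PDIA4 1.49, ERN1 0.486, HYOU1 1.44, HSPA4L 0.531, SLC5A3 1.41, SGK1 0.794, LSS 1.58, SCD 1.47, FADS2 1.51, MT-CO1 1.21, MT-ND1 0.804 and MT-CYB 1.15. Cell type markers gave CDH2 1.25, CRYAB 0.226, GJA1 1.16, CD74 1.73, KRT10 0.803 and TYRP1 0.102. TYRP1 has too few counts for its ratio to be read as a size, and ASNS shares exon bases with another gene.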

How the results depend on the processing

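No interaction of the 117 genes taken by the naming rule changed sign under any alternative run. The interaction was called in 4592 genes with all libraries and in 4051 to 4503 with 1 library left out, and without NC-A replicate 1 the test called 4420 of 18527 tested, 4097 of them shared (89.2% of the 4592 and 92.7% of the 4420), all 4097 with the same sign. With a 2-fold minimum the interaction called 378 genes, 122 higher and 256 lower; DHN-A against DHN 670, 272 higher and 398 lower; NC-A against NC 192, 138 higher and 54 lower; DHN-A against NC-A 10, 5 in each direction; and DHN against NC 635, 450 higher and 185 lower. Without a filter on low counts NC-A against NC called 1044 genes higher, and DHN-A against NC-A 271 higher and 127 lower. On the linear scale DHN-A against NC-A called 107 genes, 37 higher and 70 lower. In the edgeR fit with 1 library left out, DHN-A against NC-A called 143 to 426, with 51 to 161 higher and 92 to 271 lower. The cause was not tested. Without a filter 64 genes were raised by each treatment alone, 49 of them called lower, and 9 proteasome subunits were called lower.

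Of these 117 genes 117 kept their call under relative log expression factors and 117 with the replicate block, and 41 at a 2-fold minimum; under the other settings calls were lost for TIPARP, AHRR, ARRDC3, ARRDC4, KRT10 and TYRP1, and on the linear scale also for TXNIP and MT-CYB. The labels do not say whether replicate numbers pair the libraries. Correlations of same-numbered deviations ran from -0.176 to 0.229. Differently numbered libraries were not compared, so these values cannot decide it. The replicate block gave 4477 interaction calls, 2292 higher and 2185 lower, and 334 calls for DHN-A against NC-A. Low counts limit TYRP1, for which no size can be read.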
